A study of Mus musculus with 11 samples.

Results

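The H/ACA box small nucleolar RNAs (snoRNAs) were taken as every row of the deposited small RNA table whose name begins with Snora. There were 38 such rows of 3859. A further 9 rows whose names are written SNORA in capitals lay outside this rule, and 75 Snord rows (C/D box snoRNAs) and 9 Scarna rows (Cajal body RNAs) were used for comparison. The libraries came from mouse embryonic fibroblasts (MEF) carrying a doxycycline-inducible OKSM cassette, which encodes Oct4, Klf4, Sox2 and Myc, the factors that drive reprogramming, and labelled with the genotype Mbd3f/-. Mbd3 belongs to NuRD, a complex that remodels and deacetylates chromatin. One library each was made from uninduced MEF, from cells on days 1, 2, 3, 4, 5, 6, 7 and 8 after doxycycline, from an established induced pluripotent stem cell (iPSC) line and from an embryonic stem cell (ESC) line, giving 11 libraries and no replicate of any stage. All 11 libraries carry the label Mbd3f/-, but the column matched to the ESC sample bears the name V6_5 and the series' design text also mentions wild-type V6.5 cells, so the genotype of that library is uncertain. No library labelled as unmodified in Mbd3 was analysed here. Per the labels, cells of days 3 to 8 and both pluripotent lines were plated on irradiated human foreskin fibroblasts, and the medium also changed during the course, with sources that differ on when the inhibitors of MEK and GSK3 (2i) were added. Feeders, medium and day therefore cannot be told apart.

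An H/ACA snoRNA folds into a pair of hairpins joined by a hinge that holds the H box and followed by a tail that holds the ACA box. It assembles with dyskerin, the pseudouridine synthase, and with Nhp2, Nop10 and Gar1, and pairs with ribosomal or spliceosomal RNA so that dyskerin converts a chosen uridine to pseudouridine. In mammals most of these RNAs are cut from introns of host genes, many of which encode ribosomal proteins, translation factors or noncoding snoRNA hosts.

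The sequences of 6 members carry the main patterns: Snora24 and Snora44 stood 15.2-fold and 29.8-fold above MEF on day 1, Snora16a shares a host gene with Snora44 but peaked on day 8, Snora17 and Snora75 had the steepest slopes, and Snora41 supplied the most reads in the pluripotent lines. They are GENCODE vM21 transcript sequences, 5′ to 3′ on GRCm38, with the H box motif ANANNA nearest the middle and an ACA exactly 3 bases before the 3′ end in capitals.
Snora24: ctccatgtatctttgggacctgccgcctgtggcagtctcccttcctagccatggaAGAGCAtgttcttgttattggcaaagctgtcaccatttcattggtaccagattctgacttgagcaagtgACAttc
Snora44: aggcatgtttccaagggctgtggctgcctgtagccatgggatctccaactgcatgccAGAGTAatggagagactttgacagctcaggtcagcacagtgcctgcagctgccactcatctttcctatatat
Snora16a: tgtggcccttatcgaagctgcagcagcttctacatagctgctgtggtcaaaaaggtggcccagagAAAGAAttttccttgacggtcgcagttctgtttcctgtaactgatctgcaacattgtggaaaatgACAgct
Snora17: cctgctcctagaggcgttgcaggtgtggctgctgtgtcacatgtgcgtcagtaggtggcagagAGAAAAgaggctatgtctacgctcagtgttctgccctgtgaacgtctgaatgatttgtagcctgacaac
Snora75: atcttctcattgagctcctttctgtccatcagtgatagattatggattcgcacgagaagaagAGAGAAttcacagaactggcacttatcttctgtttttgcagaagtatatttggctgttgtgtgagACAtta
Snora41: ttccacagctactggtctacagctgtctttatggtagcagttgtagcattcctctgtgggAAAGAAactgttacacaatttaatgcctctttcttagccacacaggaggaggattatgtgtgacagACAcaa
Snora24 lies at chr3:123507937-123508066 on the minus strand in Snhg8, and Snora41 at chr1:63179004-63179135 on the plus strand in an intron of Eef1b2, which encodes a translation elongation factor subunit. Snora44, at chr4:132309941-132310069, and Snora16a, at chr4:132309465-132309600, both lie on the plus strand in Snhg12. Snora75 lies at chr1:86351169-86351301 on the minus strand in Ncl, which encodes nucleolin. Snora17, at chr2:26639190-26639321 on the minus strand, had no GENCODE host, while a RefSeq table without strands places the span of Snhg7 across it and across Snora43.

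Over all 38 members, an ACA 3 bases before the 3′ end, searched on the transcript strand only, was found in 31 (81.6%). It was found in 25.9% of the 884 GENCODE snoRNA transcripts of the members' length range and in 0 of 98 Snord transcripts. ANANNA within the middle 40% of the transcript was found in 36 of 38 members (94.7%), and in 87.8% of the same 884 transcripts. The 884 were not stripped of the members or of other H/ACA snoRNAs. Of the 98 Snord transcripts, which were not matched in length, 46 held it (46.9%). Snora17 and Snora44 lack the ACA at that exact distance from the annotated end: Snora17 ends in GACAAC, with its ACA 1 base closer, and Snora44 ends in ATATAT. The label of the class thus matched the annotated sequences of most members by the ACA motif. The degenerate H box motif was more frequent in members than in Snord transcripts but, unlike the ACA, was not absent from those.

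Values are FPKM, the reads of a transcript scaled to its length and to the mapped reads of its library. The members are 121 to 205 nt long, shorter than most of the fragments assumed when FPKM is computed, so FPKM is steeply dependent on length. Levels were therefore compared between members as implied reads, recovered from the worth of 1 read, and between libraries as FPKM within a member. Whether reads came from whole snoRNAs or from shorter pieces of them is not shown by values per transcript. The libraries were made with a small RNA kit and gel size selection. Levels below are thus those of reads assigned to a member, and whole snoRNA was not measured. In a bulk library, fewer cells carrying a snoRNA and less of it per cell cannot be told apart. The labels do not say that stages came from separate cultures, so errors of a trend describe only the scatter of these libraries around a line.

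The implied mapped reads ran from 11500000 in MEF to 21700000 on day 7. The rows of the table held 22.8% of them on day 7 and 27.9% on day 8, against 45.2% to 59.6% in the other 9 libraries, a difference that moves with the last days of the course and whose part in the results was not tested. The 12 pluripotency miRNAs looked up (miR-290 and miR-302 clusters) summed to 21400 FPKM in MEF, with 5 of 12 listed at 0, and to 46900000 on day 8, with none at 0. Mir295 was listed at 0 in iPSC and ESC although its cluster was abundant there, so a listed 0 in this table can be a failed estimate. The 7 fibroblast and mesenchymal miRNAs found, a list that includes Mir21 and Mir199 genes, summed to 25200000 FPKM in MEF, 64700000 on day 1 (the highest library), between 11300000 (day 8) and 32600000 on later days, 6000000 in iPSC and 26300000 in ESC. For the 5 muscle miRNAs found, the sum was 177000 FPKM before induction, 37100 a day later and 331 by day 8. The part of these lists in the day 1 levels of the members was not tested. Mir143 was at 0 in MEF and no other gene of that list was at 0 in any library. How much of the ESC level came from feeder cells was not tested.

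H/ACA snoRNAs were a small share of the small RNA reads and were scarcest in MEF. Their summed implied reads per 1000000 mapped reads (RPM) were 59.1 in MEF. On days 1 to 8 they were 291.9, 219.3, 173.0, 146.2, 143.3, 223.8, 139.1 and 305.6. They were 363.6 in iPSC and 225.7 in ESC. Levels were thus high on day 1, lower on days 4, 5 and 7, and high again on day 8, and MEF stood below every other library. The reads behind these values ranged from 680 in MEF to 6248 on day 8. The C/D box sum followed in part, at 2715 RPM in MEF, then 10220 on day 1, 12260 by day 8 and 20480 in iPSC, and H/ACA reads were between 1.4% (ESC) and 2.8% (day 1) of the H/ACA and C/D reads together.

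**Figure D1:**
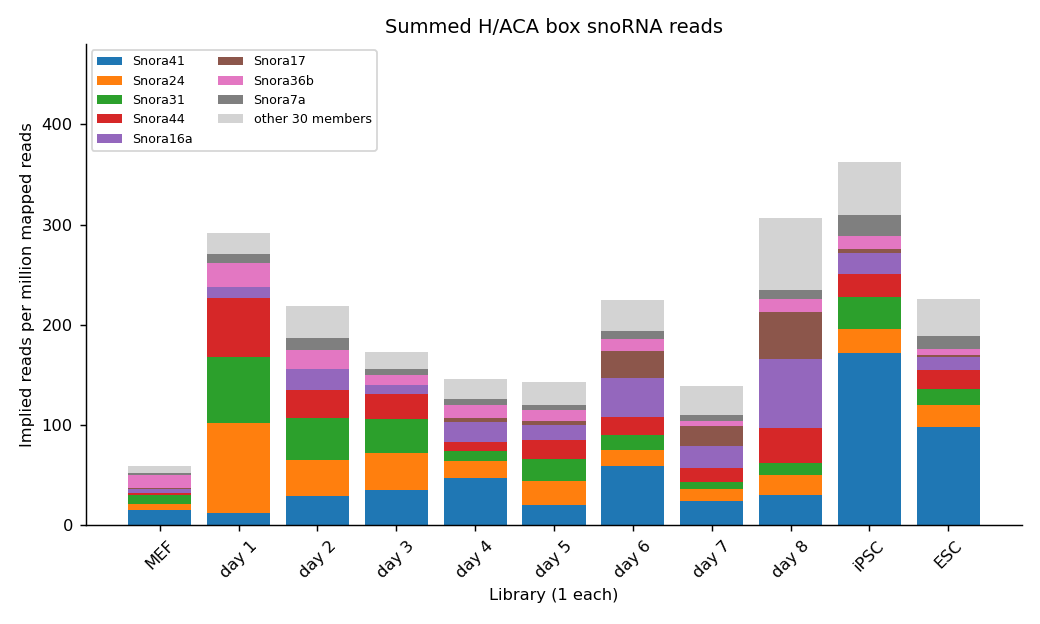
Implied reads of the 38 H/ACA snoRNAs per 1000000 mapped reads (vertical axis) in each of 11 libraries (horizontal axis, 1 library each), stacked by member, with the 8 most read members in colour and the other 30 in grey. The total was lowest in MEF (59.1) and highest in iPSC (363.6), and Snora24, Snora31 and Snora44 fill most of the day 1 bar while Snora41 fills the largest part of the iPSC and ESC bars.

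A few members made up most of the reads, and which ones did changed with the stage. The 8 most read members together held between 76.7% (day 8) and 92.7% (day 1) of all H/ACA reads. Snora24, from Snhg8, held 10.0% of H/ACA reads before induction, 30.7% on day 1 and 6.6% on day 8. Snora31, from the Tpt1 gene of a translationally controlled protein, held 14.8% in MEF, 22.5% on day 1 and 3.9% on day 8. Both gave way over the course. Snora16a held 6.6% in MEF, 3.6% on day 1 and 22.3% on day 8. Snora17 held 2.6% in MEF, 0.1% on day 1 and 15.4% on day 8. Snora41 went from 26.2% in MEF to 4.3% on the first day, was again the most read member on days 4 (32.4%), 6 (26.3%) and 7 (17.8%), and went to 9.9% on the last day. It held 47.5% in iPSC and 43.5% in ESC, the largest share of any member there. Snora36b, in Rab3gap2, was second to Snora41 in MEF with 22.0% and held 2.7% in ESC.

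Of the 38 members, 29 had a mean of at least 10 FPKM over the 11 libraries and entered the trend test, which was fitted over all 1419 features that passed the same filter. A member could pass through 1 library in which it was high. The test was limma's slope of log2(FPKM + 10) per day over MEF, placed at day 0, and days 1 to 8, with Benjamini-Hochberg adjustment over all 1419. By this test 8 of the 29 rose (27.6%, against 12.5% of all features) and 0 of 29 fell (10.6% of all features). At an unadjusted p under 0.05, 1 more member, Snora34, had a positive slope and no member had a negative one. The median slope was 0.17 per day for the 29 members, 0.12 for 75 Snord rows, -0.03 for 9 Scarna rows and 0.02 for all features, on the log2 scale. The joint F-test in limma of a linear and a squared day term, which a straight course can also pass, called 7 of 29 members (24.1%), below the 32.6% of all features, and these 7 were the members called by slope except Snora62.

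**Figure D2:**
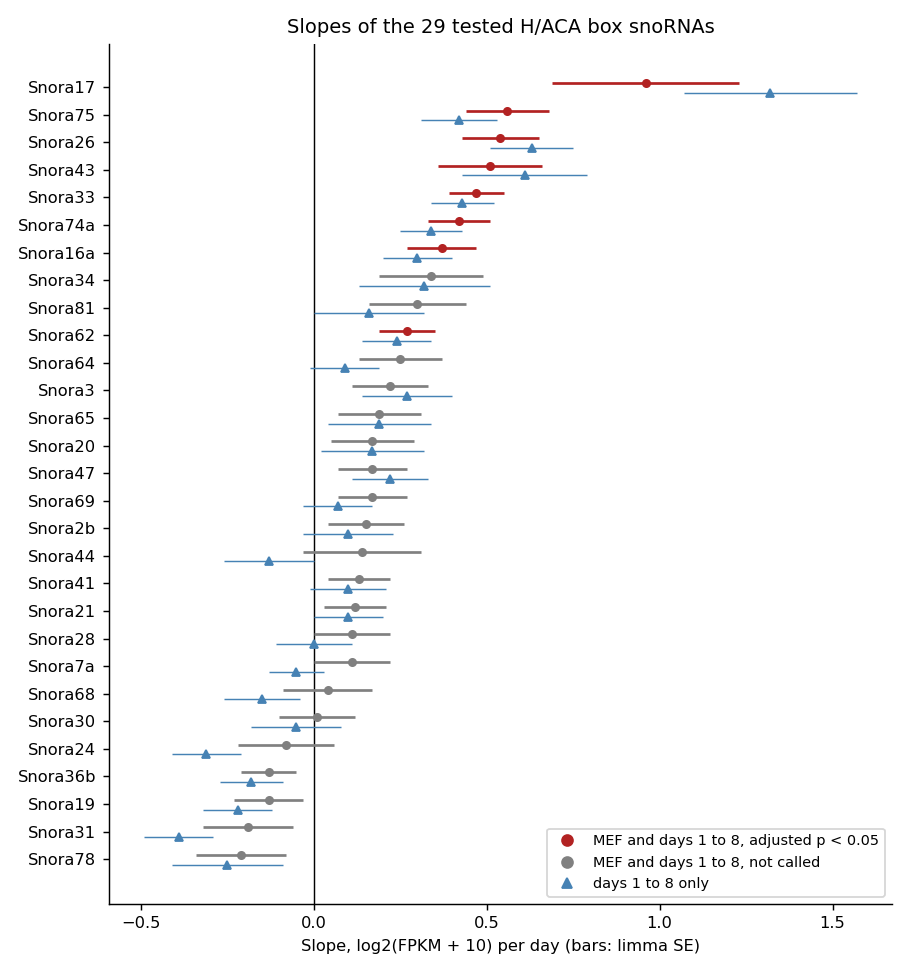
Slope of log2(FPKM + 10) per day (horizontal axis) for each of the 29 tested H/ACA snoRNAs (vertical axis); circles are fits over MEF and days 1 to 8, red where the adjusted p is under 0.05, triangles are fits over days 1 to 8, and bars are limma standard errors. The 8 red circles run from 0.27 (Snora62) to 0.96 (Snora17), and the triangle of Snora31 lies at -0.39.

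Snora75, processed from the nucleolin gene, rose through the course. Its FPKM was 10.5 in MEF, then 87.8, 401, 131, 213, 291, 496, 500 and 1485 on days 1 to 8, with 811 in iPSC and 575 in ESC. MEF was lowest and day 8 highest of the 11 libraries, and the single interruption was the step down from day 2 to day 3. The MEF value rests on 1 implied read and the day 8 value on 250. The slope was 0.56 ± 0.12 (SE, 9 libraries) per day with limma's adjusted p of 0.0105, and the day 8 level was 141-fold the MEF level, with a 95% counting interval of 25.1 to 5590. The pluripotent lines lay between day 7 and day 8.

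Snora74a, the U19 snoRNA, also rose. Its FPKM was 8.87 in MEF, then 71.4, 87.9, 57.9, 73.1, 90.1, 147, 272 and 413 on days 1 to 8, with 71.5 in iPSC and 57.8 in ESC. It stayed between 57.9 and 90.1 from day 1 to day 5 and stood higher on each day from day 6 on, while iPSC lay near the day 1 level and ESC below it. The slope was 0.42 ± 0.09 per day with limma's adjusted p of 0.0105, on 3 implied reads in MEF and 247 on day 8. It overlaps an annotated miRNA gene (Gm49347) on the same strand, and reads of the overlapping genes cannot be told apart here.

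Snora33, from an intron of the ribosomal protein gene Rps12, was listed at 0 in MEF. Its FPKM on days 1 to 8 was 21.5, 9.84, 20.6, 29.4, 96.3, 82.1, 79.8 and 202, with 99.5 in iPSC and 52.8 in ESC. Days 5 to 8 lay above all earlier libraries. These are few reads, 2 on day 1 and 31 on day 8, and the slope was 0.47 ± 0.08 per day with limma's adjusted p of 0.00412. Snora26, from the noncoding RNA gene Dancr, was at 0 or below 0.01 of a read in MEF and on days 1 to 4. It then stood at 50.2, 24.0, 84.9 and 165 FPKM on days 5 to 8, which is 4, 2, 11 and 21 implied reads, and at 15.3 in iPSC and 8.83 in ESC. The slope of Snora26 was 0.54 ± 0.11 per day with limma's adjusted p of 0.00792. Snora26 passed the filter on the mean only through days 5 to 8, the days on which it was high. Without that filter limma's adjusted p was 0.0116.

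Snora75, Snora74a, Snora33 and Snora26 were the members that passed the test whichever 1 of the 9 libraries was left out. Of these, Snora26 had entered the test only through libraries in which it was high. Without day 8 these members were the 4 that remained of 8, and between 4 and 7 members rose over all such fits. Without days 7 and 8, 2 of 29 members rose (6.9%, against 12.8% of all features), Snora33 and Snora62. In that fit the share of members that rose was thus below that of all features.

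Snora17 had the steepest slope but no steady rise. Its FPKM was 189 in MEF, 47.4, 0.481, 0.0114, 490, 404, 3407, 2431 and 5845 on days 1 to 8, against 502 in iPSC and 244 in ESC. It was almost absent on days 2 and 3 and on day 8 had 962 implied reads against 18 in MEF. The slope was 0.96 ± 0.27 per day with limma's adjusted p of 0.0292, and the call was lost when day 1, 2, 6, 7 or 8 was left out, with adjusted p up to 0.104. It was also lost with a pseudocount of 1 (adjusted p 0.0903), without the filter (0.0667) and under scaling to the summed Snord FPKM (0.0723). A SNORA43 row outside the rule is 91.0% identical to Snora17 and stood at 0 on day 2 and 12.5 FPKM on day 3. How reads that match several loci were assigned is not given in the sources used here, and the part of that step in the values of days 2 and 3 was not tested.

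Snora43 lies near Snora17, at chr2:26637848-26637974 on the same strand and within the same RefSeq span, and was likewise a late transcript. It was above 0.01 of a read in 3 libraries only, at 103, 17.2 and 274 FPKM on days 6, 7 and 8 (11, 3 and 40 implied reads). Both lines were near 0, unlike for Snora17. The slope was 0.51 ± 0.15 per day with limma's adjusted p of 0.0391. The call was lost when day 1, 2, 3, 6 or 8 was left out, with adjusted p up to 0.202 (without day 8). Snora43 passed the filter on the mean only through days 6 to 8, and the adjusted p was 0.075 without that filter and 0.0953 with a pseudocount of 100. Another annotated gene of the same name overlaps it almost exactly, so its values are uncertain.

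Snora16a and Snora62 were the other members called. Snora16a had 439 FPKM in MEF, then 1188, 2273, 957, 2309, 1787, 4363, 2473 and 7700 on days 1 to 8, against 2463 in iPSC and 1457 in ESC. It moved up and down from day to day and was highest on day 8, with 1395 implied reads, the most of any member in that library. The slope was 0.37 ± 0.10 per day with limma's adjusted p of 0.0228. The adjusted p was 0.0791 without MEF and 0.101 without day 8. A second gene of its name is annotated at nearly the same position. Snora62, in the ribosomal protein gene Rpsa, had 102 FPKM in MEF, 155, 209, 142, 363, 429, 469, 215 and 715 on days 1 to 8, against 612 in iPSC and 771 in ESC. It was the least steep call, at 0.27 ± 0.08 per day with limma's adjusted p of 0.0494, and of the 9 fits that omit 1 library only the 1 without day 7 called it.

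Other members were highest on day 1 of the course and lower afterwards. They were 5 of the 29 tested members (17.2%), namely Snora24, Snora31, Snora44, Snora68 and Snora36b. That share was near the 13.5% of all features and below the 23 of 75 Snord rows (30.7%). A peak on day 1 was thus not particular to the H/ACA members. Snora24 had 768 FPKM in MEF, then 11680, 4683, 4815, 2163, 3153, 2127, 1472 and 2617 on days 1 to 8, against 3061 in iPSC and 2820 in ESC. Its day 1 level was 15.2-fold that of MEF, with a 95% counting interval of 11.8 to 19.6, and on day 7 it was at its lowest since induction. Snora44 had 266 FPKM in MEF, then 7945, 3766, 3391, 1125, 2514, 2392, 1908 and 4680 on days 1 to 8, against 3078 in iPSC and 2505 in ESC. Its step from MEF to day 1 was 29.8-fold (19.6 to 47.1), on 23 and 736 implied reads, and a second high came on day 8.

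Snora31 had 1141 FPKM in MEF, then 8574, 5566, 4446, 1411, 2871, 1905, 934 and 1560 on days 1 to 8, against 4145 in iPSC and 2135 in ESC. It stood below its MEF level on day 7, and over days 1 to 8 its slope was -0.39 ± 0.10 per day with limma's adjusted p of 0.0303. It was the 1 member of 29 that fell over days 1 to 8, where 12% of all features fell, and 6 of 29 rose, where 6.55% of all features rose. The 6 were Snora17, Snora75, Snora26, Snora43, Snora33 and Snora74a. Snora68 stood at 55.1 FPKM before induction, 676 a day later and 133 by day 4, and was higher in iPSC (1033) than on any day. Snora36b had the smallest day 1 ratio of the 5, 1.85-fold over MEF (1.52 to 2.27), with FPKM of 1613, 2987 and 1570 in MEF, day 1 and day 8, and it overlaps the miRNA gene Mir664.

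**Figure D3:**
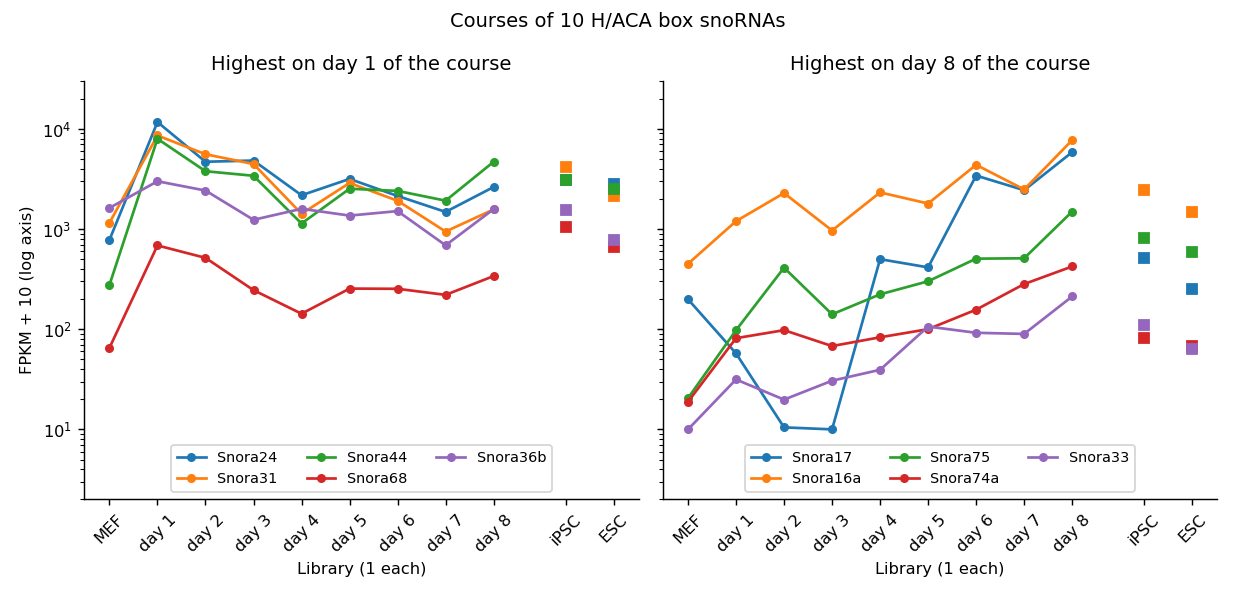
FPKM + 10 on a log axis (vertical) for 10 H/ACA snoRNAs in each library (horizontal, 1 library each); circles joined by lines are MEF and days 1 to 8, squares are iPSC and ESC, and the iPSC square of Snora24 lies behind that of Snora44. The left panel holds the 5 tested members with their highest course value on day 1, such as Snora24 at 11680 FPKM, and the right panel 5 called members with their highest on day 8, where Snora17 drops to 0.0114 FPKM on day 3.

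On day 1 against MEF, 9 of 29 members were at least 4-fold higher on the FPKM + 10 scale (21.6% of all features were) and 0 of 29 at least 4-fold lower (6.48% of all features). Besides Snora24, Snora31, Snora44 and Snora68, these were Snora7a, Snora75, Snora74a, Snora81 and Snora64. Snora7a, from Rpl32, went from 160 to 859 FPKM, 5.37-fold with a counting interval of 3.23 to 9.39. Snora17 was 3.99-fold lower (1.39 to 13.4), on 18 implied reads in MEF and 5 on day 1. With every library scaled to its summed Snord FPKM, 1 member was at least 4-fold higher and 4 were at least 4-fold lower. The direction of this count thus turned relative to the C/D box snoRNAs, which also stood higher on day 1. All features shifted too under that scaling, with a median log2 difference of 0 for the members and -0.59 for all features. By direction alone, 41.4% of members and 27.3% of all features were higher.

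By day 8, 19 of 29 members were at least 4-fold above MEF (37.7% of all features) and 0 of 29 at least 4-fold below (17% of all features). The higher members numbered 9 with a pseudocount of 100, 11 under quantile normalization (with 1 lower) and 13 under Snord scaling (with 2 lower). The median log2 difference of all features moved too, from 0.88 to 0.34, 0.13 and 0 in these settings. That of the members went from 2.43 to 1.41, 1.67 and 1.17. The largest ratios with a read in both libraries were those of Snora75 (141-fold), Snora81 (56.1-fold, counting interval 13.5 to 411, from Eif4a2) and Snora74a (46.6-fold, 15.7 to 227). That of Snora81 rests on 2 implied reads in MEF and 175 on day 8. Snora81 overlaps another small RNA gene (Gm49346) on the same strand, and Snora34 and Snora19 overlap the miRNA genes Mir1291 and mmu-mir-3084-1. Reads of the overlapping genes cannot be told apart here. Snora41, the most read member of MEF, was 1.95-fold higher (1.65 to 2.32). Snora36b stood at 0.973-fold of MEF (0.795 to 1.20), a difference not detectable at this depth. The highest value of the 9 course libraries fell on day 8 for 18 of 29 members (62.1%), against 30 of 75 Snord rows (40%) and 17.8% of all features. The step from day 7 to day 8, examined after its values were seen, was upward in 28 of 29 members and 72 of 75 Snord rows, against 66.7% of all features, and Snora19 was the member that went down, from 120 to 72.7 FPKM.

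**Figure D4:**
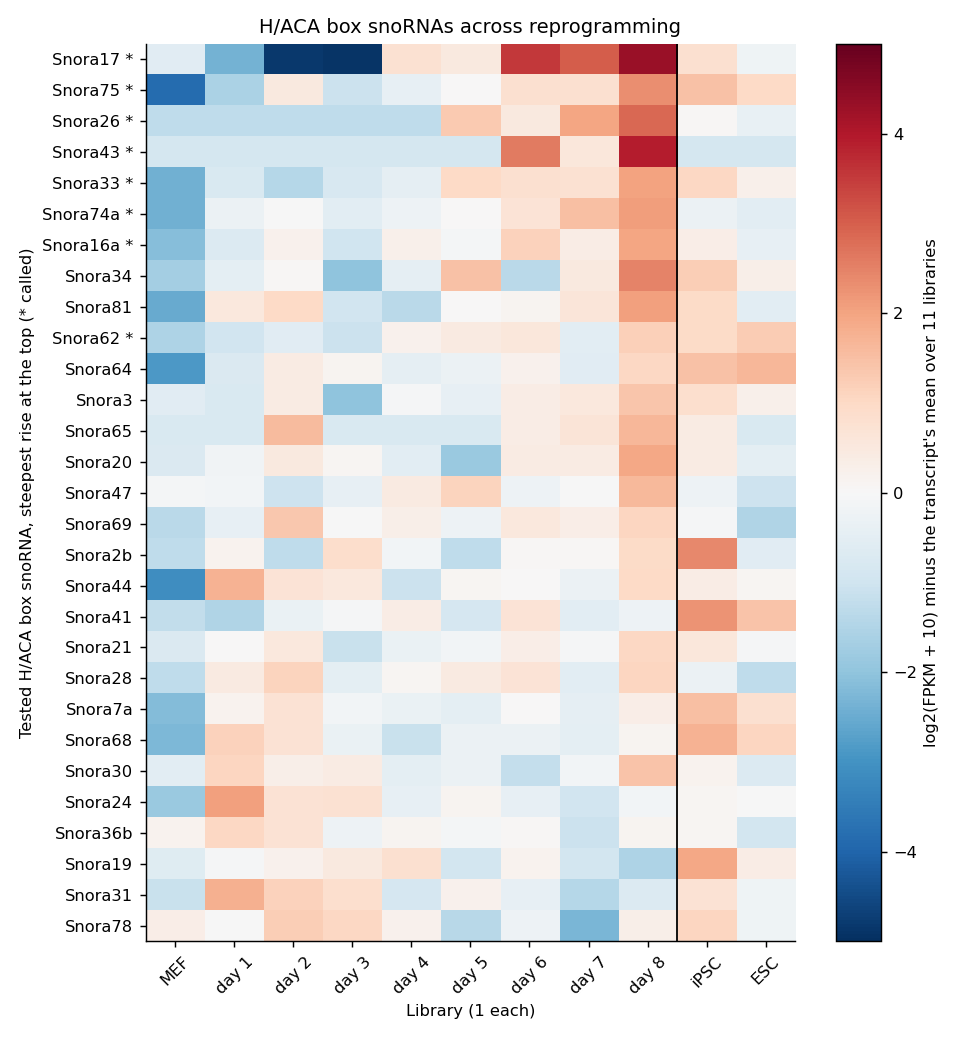
log2(FPKM + 10) of the 29 tested H/ACA snoRNAs minus each member's mean over 11 libraries (colour), with libraries on the horizontal axis (1 each) and members on the vertical axis from the steepest slope down; asterisks mark the 8 called members. The day 8 column is the warmest of the course for 18 members, and Snora17 is coldest on days 2 and 3. The MEF column is the coldest of all 11 libraries for 11 members (37.9%), against 61.3% of Snord rows and 24.3% of all features.

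From day 2 to day 3, the first day that the labels list as on feeders, 1 of 29 members was at least 4-fold higher (7.33% of all features) and 3 of 29 at least 4-fold lower (9.02% of all features). The higher one was Snora2b, listed at 0 on day 2 and at 6 implied reads on day 3. The lower ones were Snora3, Snora34 and Snora65, and Snora3, from Rpl27a, went from 224 to 33.0 FPKM, on 24 and 5 implied reads. Of the 24 members with reads on both days, counting intervals placed 11 below their day 2 level and 1, Snora41, above it. Such intervals were not computed for all features. By direction alone, 20 of 29 tested members, 49 of 75 Snord rows and 730 of 1419 features were lower on day 3. Within days 3 to 8, all on feeders per the labels, 5 of 29 members rose (4.65% of all features) and 0 of 29 fell (5.64% of all features). Those 5 were Snora75, Snora74a, Snora26, Snora81 and Snora65, with slopes from 0.50 (Snora65) to 0.84 (Snora26). Snora65 had at most 6.9 implied reads on those days, and its mean of 11.6 FPKM was just above the filter. Snora26 passed the filter only through days 5 to 8. These 2 calls thus rest on libraries that let the member into the test.

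In the pluripotent lines, 9 of 29 members were at least 4-fold above MEF in both iPSC and ESC (29.7% of all features) and 0 of 29 at least 4-fold below in both (7.75% of all features). The count was 4 higher and 2 lower under quantile normalization, and 1 higher and 1 lower relative to the summed Snord FPKM. Under Snord scaling the median log2 difference from MEF was 0 for the members in each line. For all features it was -0.36 in iPSC and -0.14 in ESC. The 9 members above MEF in both lines on unscaled FPKM were Snora41, Snora44, Snora7a, Snora68, Snora75, Snora62, Snora64, Snora81 and Snora33. Snora41 had 1925 FPKM in MEF, then 1568, 3608, 4335, 5884, 2485, 7313, 3082 and 3746 on days 1 to 8, against 21471 in iPSC and 12209 in ESC. Its level in both lines lay above every day of the course, and iPSC was 11.2-fold over MEF (9.56 to 13.0), on 2550 and 178 implied reads. Snora41 had no slope past the threshold, at 0.13 ± 0.09 per day with limma's adjusted p of 0.365. Snora7a was likewise highest in iPSC, at 2165 FPKM, with 1350 in ESC and 972 on day 8. A pair of SNORA7 rows outside the rule, at least 73.8% identical to Snora7a, were also highest in iPSC, so how reads were divided among them is uncertain. Snora36b was the member below MEF in ESC beyond counting error, 2.11-fold lower (1.63 to 2.72), and stood at 0.958-fold of MEF (0.769 to 1.20) in iPSC.

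The late-rising members were lower in the lines than on day 8. Snora17 had 502 FPKM in iPSC and 244 in ESC against 5845 on day 8, and Snora74a had 71.5 and 57.8 against 413. Snora26 and Snora43 were at or near 1 read or below in both lines. Snora62 was the exception among the 8 called members, with 771 FPKM in ESC against 715 on day 8.

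Between the lines, 1 of 29 members was at least 4-fold higher in iPSC than in ESC (10.9% of all features) and 0 of 29 at least 4-fold lower (7.12% of all features). The 1 was Snora2b, from Kansl2, at 119 FPKM in iPSC and 6.21 in ESC, or 16 and 1 implied reads, a 19.2-fold ratio with a counting interval of 2.97 to 802. Smaller differences leaned towards iPSC: 26 of 29 members were higher there, against 50 of 75 Snord rows and 55.3% of all features. Counting intervals lay above 1 for 13 members, among them Snora41 (1.76-fold, 1.65 to 1.87) and Snora31 (1.94-fold, 1.67 to 2.26), and below 1 for 0 of the 29 members with reads in both lines. The same intervals were not computed for all features. With 1 library of each line, the scatter between libraries of the same line is unknown and counting intervals do not hold it. The genotype of the ESC library is uncertain, so a difference of line and one of Mbd3 genotype cannot be told apart here.

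Members of the same host gene peaked in different libraries in Snhg12 and in Kansl2. Snhg12 holds Snora16a, Snora44 and Snora61. Snora44 was highest on day 1 (7945 FPKM) when Snora16a was at 1188, on day 8 Snora16a was above it (7700 and 4680), and Snora61 stayed below 0.01 of a read in all 11 libraries. Kansl2 holds Snora34 and Snora2b, and over all 11 libraries the former was highest on day 8 (336 FPKM) and the latter in iPSC (119 FPKM). Within the course both were highest on day 8, and Snora2b had 7 implied reads there against 16 in iPSC. Of the 38 members, 36 had a host in GENCODE and lay in an intron of at least 1 of its transcripts. The 14 tested members in ribosomal protein or translation factor genes had a median slope of 0.15 per day and 2 called. The 4 in Snhg genes had 0.03 and 1 called, and the 9 in other hosts 0.17 and 3 called. The 2 without a GENCODE host, Snora17 and Snora43, had slopes of 0.96 and 0.51, both called. The RefSeq span of Snhg7 covers both. Counted as Snhg members they would be the 2 steepest of that group, whose highest slope was otherwise 0.37. The low Snhg median thus depends on the annotation used.

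The 9 members with a mean under 10 FPKM were not tested. Snora73a and Snora73b are U17 snoRNAs, which act in cleavage of the ribosomal RNA precursor, and they lie side by side in Snhg3 and Rcc1 and are 96.6% identical, so reads may be divided between them arbitrarily. Snora73a was at most 19.5 FPKM (iPSC) and Snora73b at most 20.9 (day 8), which are 10 and 14 implied reads. Snora35, which lies in the serotonin receptor gene Htr2c and is known as a brain snoRNA, was listed at 0 in all 11 libraries. Snora61 was never above 0.01 of a read. Snora15, Snora23, Snora5c, Snora52 and Snora70 had at most 5, 16, 8, 3 and 2 implied reads in any library. In all, 24 of 38 members were above 0 in every library, 20 had at least 1 implied read (after rounding) in every library, and 9 had at least 10 in every library.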

How the data were processed

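The authors deposited 1 table of FPKM values for small RNA genes, with 1 column for each of 11 libraries and 0 columns of other samples. Per the labels' protocols, total RNA went into the Illumina TruSeq small RNA kit with gel size selection. Cufflinks 2.2.1, Bowtie2 2, CASAVA 1.8.2 and the build mm10 appear in the submitters' processing notes without their roles. The annotation used and the treatment of reads that match several loci were not given in the sources used here. Members, lists and tests were chosen with earlier results of these data known.

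Gene IDs of all 38 members were matched to GENCODE vM21 (GRCm38, the same assembly as mm10) for coordinates, hosts and sequences, with RefSeq spans, whose strand is not in the table used, given where GENCODE had no host. A GENCODE host is a gene of another name on the same strand that spans the whole snoRNA. Implied reads were obtained as FPKM times an effective length, from an assumed Gaussian fragment length of 200 ± 80 nt, times implied mapped reads. Of 4582 values between 0.5 and 5.5 reads, 93.3% were then whole within 0.1 read; the same values set the scale, so this is no independent check, and no count test was run. Counting intervals are exact 95% intervals from implied reads, rounded to whole reads, and cover counting error only.

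Slopes were fitted with limma 3.58.1 in R 4.3.3 on log2(FPKM + 10), a scale that understates changes of low transcripts, over 9 libraries with a mean filter of 10 FPKM and a threshold of 0.05 (7 residual and 2.53 prior degrees of freedom). The fit was tested on simulated data. Comparisons of single libraries have no test and count members at least 4-fold apart on FPKM + 10. Members were named if called, among the 10 highest means, the 5 most positive or most negative slopes, or the members 4-fold apart in the lines, with Snora73, Snora74 and Snora35 rows added for known roles. Other members were named to account for counts, after their values were seen. Alternatives covered the pseudocount, the filter, scaling, the libraries fitted, the model and the fold. Terc, Rmrp and Rpph1 were not analysed here.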

Additional observations from a re-analysis of the deposited data

How the results depend on the processing

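No paired analysis was possible because each stage had 1 library. Rising members numbered 8 as reported, 5 at a mean filter of 100 FPKM, 5 on days 3 to 8 and 2 without days 7 and 8. Of all features tested, 16.5% rose at the filter of 100 FPKM, 4.65% on days 3 to 8 and 12.8% without days 7 and 8. Leaving out 1 library gave 4 to 7 rising and 0 to 1 falling. One member, Snora31, fell under quantile normalization, and likewise 1 under Snord scaling. Among the 20 tested members picked by the naming rule, slopes that changed sign, none past the threshold, were Snora41 (-0.07 on days 3 to 8), Snora24 (0.04 scaled to Mir FPKM), Snora68 (-0.04) under Snord scaling, and Snora19 (0.04) without days 7 and 8. Of the other tested members, Snora20 (-0.04) and Snora30 (-0.20) changed sign without days 7 and 8, and Snora30 also with 1 library left out (as low as -0.13), under quantile normalization (-0.02) and under Snord scaling (-0.07). Leaving out 1 library, slopes ran from -0.31 (without MEF) to 0.04 (without day 1) for Snora24, and from a value without MEF to one without day 1 of -0.13 to 0.29 for Snora44, -0.05 to 0.16 for Snora7a and -0.15 to 0.15 for Snora68. The median slope of all features moved from 0.02 to 0.12 under Mir scaling, where that of the members was 0.27, and to -0.04 under Snord scaling, where it was 0.11.

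Counts of members 4-fold apart moved as follows. On day 1 against MEF, higher members numbered 4 with a pseudocount of 100, 3 under quantile normalization, 1 under Snord scaling and 15 at 2-fold, and lower members 1 under quantile normalization, 1 under Mir scaling, 4 under Snord scaling and 1 at 2-fold. On day 8 against MEF, 9 were higher with a pseudocount of 100 and 11 under quantile normalization, while 1 was lower under quantile normalization and 2 under Snord scaling. On day 3 against day 2, 2 were higher and 5 lower with a pseudocount of 1, 0 and 0 with a pseudocount of 100, 0 lower under quantile normalization and 10 lower at 2-fold. In both lines against MEF, 4 were higher under quantile normalization and 1 under Snord scaling, with 2 and 1 lower. In iPSC against ESC, 4 were higher with a pseudocount of 1, 0 with 100, 2 without a filter and 8 at 2-fold. Shares of all features under these settings are not given, so these counts do not separate a change in the members from a shift of the whole table. The causes were not tested. Many members rest on few reads: 17 of the 29 tested had under 10 implied reads in MEF, and ratios to MEF are the least precise.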
